A study of Homo sapiens with 16 samples.

Results

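ETV1, ETV4 and ETV5 make up the PEA3 subfamily of ETS transcription factors. All probes whose gene symbol in the deposited table was ETV1, ETV4 or ETV5 were taken, which gave 5 probes of 24526 on the array and 3 genes of 18631 symbols. ETV4 and ETV5 had 2 probes each and ETV1 had 1. Of the 5 probes, 4 passed the filter on dim probes, a detection p-value under 0.05 on at least 3 arrays. The genes were selected on their log2 changes over this same course, known from earlier results, so their levels and changes are given as a description, with no test.

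SUM225 is a line of human breast cancer cells with amplification and over expression of HER2, and it was kept in 1 µM CP724,714, a small molecule inhibitor of the HER2 kinase. RNA of parallel cultures was taken at intervals of 3 h up to 45 h and hybridised to Illumina bead arrays, with 1 array at each of 16 time points. The labels of all 16 samples list a medium with 5% serum, 5 µg/ml insulin and 1 µg/ml hydrocortisone, whereas the study's methods describe serum-free culture of this line without insulin. Without an untreated course among the arrays analysed, time in culture and handling at the start of treatment cannot be told apart from the inhibitor, and in RNA from whole cultures fewer cells expressing a gene and less RNA per cell cannot be told apart. The arrays had median signal intensities of 242 to 384 and detected 57.5% to 61.5% of probes. KRT8, KRT18, KRT19, EPCAM and CDH1, markers of epithelium, and ERBB2, GRB7 and STARD3, which lie together in the HER2 amplicon, were detected on all 16 arrays. PTPRC, the pan-leukocyte marker, was detected on 0 of the 16, COL1A1, a fibroblast collagen, on 5, and PECAM1, ACTA2 and CD14 on all 16.

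PEA3 factors bind GGAA core sites through their ETS domain and are activated by ERK phosphorylation, so receptor tyrosine kinases reach them through RAS, RAF, MEK and ERK. Their transcription is itself held down by Capicua, the product of CIC, a repressor that ERK activity relieves, while the ubiquitin ligase COP1 removes the proteins. ETV4 is known to be over expressed in breast cancers together with HER2, and these genes act in branching of epithelia such as the mammary gland, lung and kidney.

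At 9 h ETV5 had the deepest decline from 0 h of the detected PEA3 genes, on 1 of its 2 probes. This probe, ILMN_1739222, was detected on all 16 arrays, with a signal intensity of 1573 at 0 h, 983 at 3 h and 366 at 6 h, and of 320 by 9 h. After background correction and quantile normalization the log2 values were 10.55 at 0 h, 10.11 at 3 h, 8.30 at 6 h, with 7.19 for the 9 h array. The level at 9 h was thus 10.2-fold lower than at 0 h. The main part of this decline lay between the 3 h and 6 h arrays, where the log2 value differed by -1.81, against -0.43 between 0 h and 3 h. At 6 h the probe was 4.75-fold below 0 h, and among 16110 tested probes it ranked 15 by the size of its decrease from 0 h to 6 h. For comparison, 5.65% of all tested probes were at least 1.7-fold lower at 6 h than at 0 h.

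The level of ETV5 at 12 h was above that at 9 h. The log2 values of ILMN_1739222 were 8.54, 8.64, 8.11 and 7.75 from 12 h to 21 h. The array at 12 h was thus 2.54-fold higher than that at 9 h, and 2.97% of all tested probes were at least 1.7-fold higher across the same pair of arrays. The mean of the 12 h to 21 h arrays was nevertheless 0.28 log2 units lower than the mean of the 3 h to 9 h arrays (8.26 against 8.54), so the rebound lay above the 6 h and 9 h arrays and below the 0 h and 3 h arrays. The labels give no array batch. For description the arrays were also divided here into sets of 4 consecutive time points, which start at 0, 12, 24 and 36 h. These sets are a division by time and not a recorded batch. The step from 9 h to 12 h crosses a boundary between such sets, whose part in the ETV5 rebound was not tested.

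After 15 h the level of ETV5 on this probe was lower again and did not return to its starting value. The log2 values were 7.53, 7.82, 7.31 and 6.99 from 24 h to 33 h, then 6.16, 6.26, 6.37 and 6.40 from 36 h to 45 h. The last 4 arrays were the 4 lowest of the course, and they differed from each other by less than the residual SD of the fitted course of 0.62. Their signal intensities for this probe were 228 to 249, close to the lowest detected signals of 221 to 235 on these arrays. Signal over background thus limits both the flat end and the size of the decrease. At 45 h the probe was 17.7-fold below 0 h, and it ranked 9 of 16110 tested probes by the size of that decrease. With no background correction the log2 difference was -2.69 in place of -4.14. At 45 h 13.5% of all tested probes were at least 1.7-fold below 0 h. The probe was at least 1.7-fold below its 0 h level on 14 of the 15 later arrays, from 6 h on. The linear term of a cubic course fitted over all 16 arrays was -3.56 ± 0.42 log2 units over 45 h (SE of the fit).

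**Figure D1:**
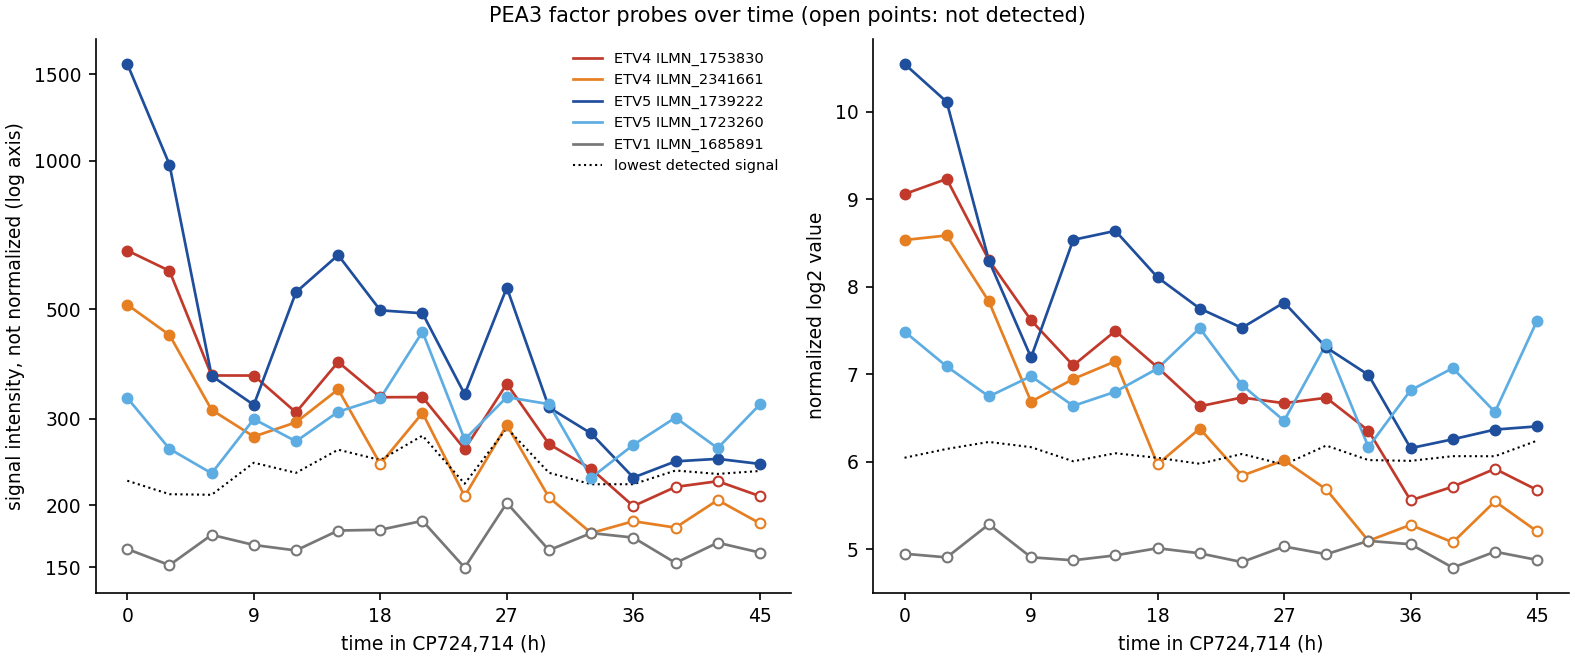
Signal intensity as deposited (left, log axis) and normalized log2 value (right) of the 5 PEA3 probes against hours in CP724,714, with 1 array per time point and no error bars. Filled points were detected and open points were not, and the dotted line is the lowest signal of any detected probe on each array; ETV5 ILMN_1739222 went from 10.55 at 0 h to 7.19 at 9 h and stood at 8.54 at 12 h, both ETV4 probes ended below the line, and ETV1 lay below it throughout.

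The other ETV5 probe, ILMN_1723260, did not follow this course. It was also detected on all 16 arrays, but its signal intensity stayed between 228 and 450, close to the lowest detected signal of 210 to 287 on these arrays. Its log2 value started at 7.49 and ended at 7.61, with 6.75 at 6 h, 7.53 at 21 h and 6.17 at 33 h, and with a linear term of -0.13 ± 0.30 over 45 h. The 45 h value was the highest and the 33 h value the lowest. The means of the 4 sets of arrays were 7.08, 7.01, 6.72 and 7.02. They differed by less than the residual SD of 0.42, but this is a spread of single arrays and means of 4 arrays vary by less. Over the 16 arrays the 2 ETV5 probes had a Pearson r of 0.18 and a Spearman rho of 0.07, so they disagree on the course of ETV5. The file gives no probe positions, and which transcripts of ETV5 each probe reads was not tested.

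ETV4 was level at 3 h and lower from 6 h on. On probe ILMN_1753830 the signal intensities of the first 4 arrays were 658, 598, 367 and 367, and the log2 values were 9.06, 9.23, 8.31 and 7.62. The 3 h value was 0.17 log2 units above the 0 h value, less than the residual SD of 0.32, and the differences were -0.93 from 3 h to 6 h and -0.69 from 6 h to 9 h. The probe was thus 2.72-fold lower at 9 h than at 0 h. The log2 values then were 7.10, 7.50, 7.08 and 6.63 from 12 h to 21 h, and 6.73, 6.67, 6.73 and 6.36 from 24 h to 33 h. There was no rebound at 12 h on this probe, where the log2 difference from 9 h was -0.52. From 36 h to 45 h the log2 values were 5.56, 5.72, 5.92 and 5.68, and none of these 4 arrays detected the probe.

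The other ETV4 probe, ILMN_2341661, had a like course. Its signal intensity was 511 at 0 h and 443 at 3 h, and its log2 values on the first 4 arrays were 8.54, 8.59, 7.83 and 6.69. The probe was 3.60-fold lower at 9 h than at 0 h. The log2 values were 6.95, 7.15, 5.97 and 6.38 from 12 h to 21 h, and 5.84, 6.02, 5.68 and 5.10 from 24 h to 33 h. It was detected on 8 of the 16 arrays, the last of them at 27 h. That array had the highest median signal intensity of the course, 384, and its value of 291 for this probe lay just above the lowest detected signal of 287 there.

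Because ETV4 was not detected at the end of the course, its decrease has only a lower bound. Set against the lowest log2 value of any detected probe on the 45 h array, ILMN_1753830 was at least 7.05-fold lower at 45 h than at 0 h and ILMN_2341661 at least 4.90-fold lower. These bounds hold only for the main background correction and offset. With no background correction the whole log2 differences from 0 h to 45 h were -1.69 and -1.51. The fitted values, which include arrays without detection, gave linear terms of -3.33 ± 0.24 and -3.38 ± 0.27 log2 units over 45 h, which differ by less than their SE. Both probes were at least 1.7-fold below 0 h on 13 of the 15 later arrays, from 9 h on. With no background correction the linear terms were -1.59 and -1.44, with -2.10 for ETV5 ILMN_1739222, so the size of these decreases depends on the correction while their direction does not.

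The differences within sets of 4 arrays were negative for ETV4 and for ETV5 ILMN_1739222 up to 33 h. Within the 0 to 9 h set, the last array differed from the first by -3.36 log2 units for ETV5 ILMN_1739222, and by -1.44 and -1.85 for ETV4 ILMN_1753830 and ILMN_2341661. Within 12 to 21 h the differences were -0.78, -0.47 and -0.57, and within 24 to 33 h they were -0.54, -0.38 and -0.74. The -0.54 of ETV5 was smaller than the residual SD of that probe, 0.62, and the others were larger than theirs, 0.32 and 0.35 for the ETV4 probes. A residual SD is the spread of single arrays, and a difference between arrays varies by more. ETV4 ILMN_2341661 was not detected at 24 h or 33 h, so its -0.74 lies between values without detection. Within 36 to 45 h the differences were 0.25, 0.12 and -0.07, each smaller in size than the residual SD of its probe. Between 33 h and 36 h, across a boundary, ETV5 ILMN_1739222 differed by -0.84 and ETV4 ILMN_1753830 by -0.80, while ETV4 ILMN_2341661 differed by 0.18. ETV4 ILMN_2341661 was not detected on either of these arrays, and neither ETV4 probe was detected from 36 h to 45 h.

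The courses of both ETV4 probes resembled that of ETV5 ILMN_1739222 over the 16 arrays, but not that of ETV5 ILMN_1723260. Pearson r was 0.96 (Spearman rho 0.91) between the 2 ETV4 probes, 0.92 (0.87) between ETV4 ILMN_1753830 and ETV5 ILMN_1739222, and 0.92 (0.90) between ETV4 ILMN_2341661 and ETV5 ILMN_1739222. With ETV5 ILMN_1723260 it was 0.15 (0.05) for ETV4 ILMN_1753830 and 0.19 (0.08) for ETV4 ILMN_2341661. The points share one time trend and the same arrays, and there are 10 pairs among the 5 probes. The courses differed at 12 h, where ETV5 ILMN_1739222 was 1.34 log2 units above its 9 h value and the ETV4 probes were -0.52 and 0.26 from theirs.

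ETV1 was not detected on any of the 16 arrays. The signal intensity of its probe ILMN_1685891 was between 150 and 202 with a median of 167, below the lowest detected signal of every array, and its log2 values lay between 4.79 and 5.29. The probe thus gives an upper bound and no course, and the level of ETV1 transcript below that bound was not detectable here. ETV1 was the only PEA3 gene found in the promoter table of RefSeq (assembly GRCh38.p14), with 6 start sites. The 250 bases before each start were searched on both strands for the octamers TGAATGAA and TGAATGGA, the sites bound by Capicua, and 1 of the 6 windows held one. This window, chr7:13991426-13991675 on the minus strand, is printed from 5′ to 3′ with the octamer in capitals, which begins 125 bases before the start, to show the kind of site through which the PEA3 repressor acts.
ETV1: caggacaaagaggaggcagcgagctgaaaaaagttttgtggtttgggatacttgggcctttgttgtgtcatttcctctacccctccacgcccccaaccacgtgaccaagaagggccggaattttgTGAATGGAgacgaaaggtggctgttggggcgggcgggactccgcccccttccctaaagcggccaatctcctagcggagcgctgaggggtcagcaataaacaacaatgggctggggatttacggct
Of all 35116 windows of this length in the table, 2.19% held at least 1 of the octamers. A match describes letters in the reference and was not measured as binding.

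The question of how the PEA3 genes stood relative to other outputs of ERK was addressed with a list of 20 genes known to be induced by ERK, among them the dual specificity phosphatases and Sprouty proteins that feed back on the pathway. This list, like those below, was drawn up with earlier results of these data known, so its counts beside those of all tested probes are a description. Of the 20 genes, 18 passed the filter. Compared with the 0 h array, 14 of the 18 were at least 1.7-fold lower at 3 h and 0 were higher by that amount, against 2.43% and 1.82% of all tested probes. The median log2 difference was -1.97, from -3.88 to -0.39, and the median over all tested probes was 0.01. DUSP6, which dephosphorylates ERK, had log2 values of 11.25 at 0 h, 7.37 at 3 h and 10.02 at 12 h. SPRY4, an inhibitor of RAS activation, had 10.65, 7.05 and 9.44 at these times.

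Both ETV4 probes and ETV5 ILMN_1739222 thus lagged this list at 3 h. At that time 18 of the 18 genes were further below their 0 h level than either ETV4 probe, and 17 of the 18 further than ETV5 ILMN_1739222. From 3 h to 6 h the median of the list was 0.63, upwards, while the ETV4 probes differed by -0.93 and -0.75 log2 units and ETV5 ILMN_1739222 by -1.81. The other ETV5 probe, ILMN_1723260, differed by -0.40 from 0 h to 3 h and by -0.34 from 3 h to 6 h, with a linear term of -0.13 ± 0.30 over 45 h. The list held 4 genes that were also lower at 6 h than at 3 h, named here after their values were seen. SPRED1, a RAS inhibitor, went from -0.67 to -1.87 relative to 0 h, and CCND1, which encodes cyclin D1, from -0.66 to -1.80. SPRED2 and FOSL1, an AP-1 subunit, were the other 2.

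**Figure D2:**
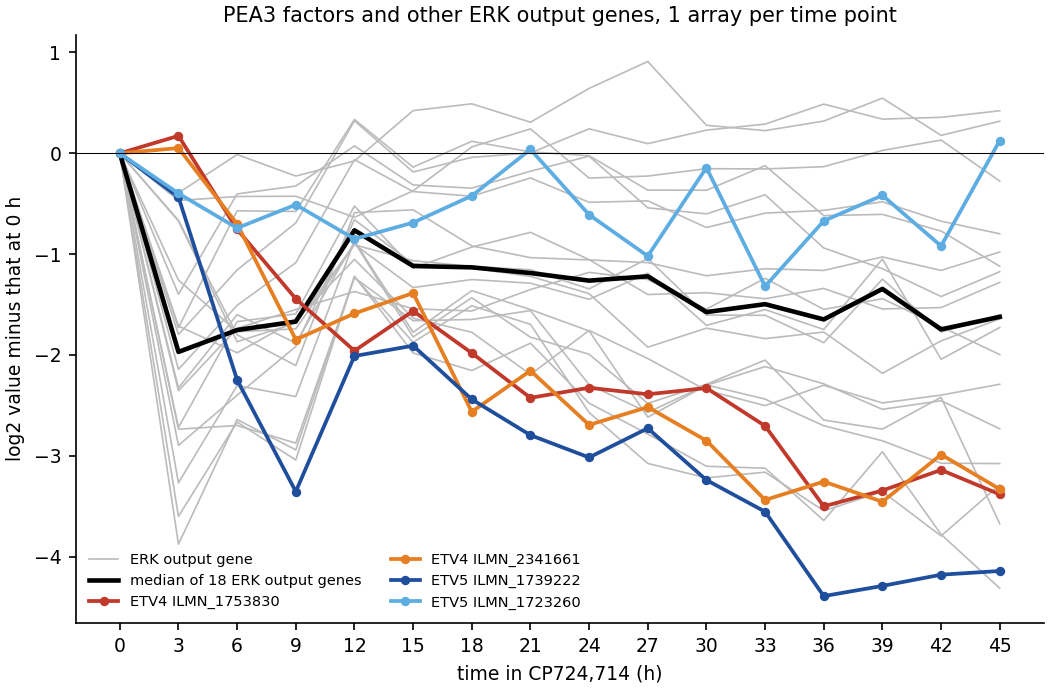
Log2 value minus that at 0 h against hours in CP724,714 for the 4 PEA3 probes that passed the filter (coloured lines), the 18 tested ERK output genes (grey lines) and their median (black line), with 1 array per time point and no error bars. The median of the list was -1.97 at 3 h, when the ETV4 probes were at 0.17 and 0.05, while at 45 h ETV5 ILMN_1739222 was at -4.14; the ETV4 points from 36 h on were not detected, nor were 4 earlier points of ETV4 ILMN_2341661.

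From 9 h to 12 h the list and ETV5 ILMN_1739222 were both higher, while ETV5 ILMN_1723260 differed by -0.34 log2 units. The median of the list differed by 1.01 log2 units between these arrays and 17 of the 18 genes were higher at 12 h, with DUSP6, SPRY4, PHLDA1, CCND1 and IER3 (named after their values were seen) higher by more than ETV5 ILMN_1739222. The median of all tested probes differed by 0.01, and 8306 of the 16110 were higher at 12 h. From 24 h to 36 h the median of the list was -0.39, with 16 of the 18 genes lower at 36 h. Over all tested probes the median was 0.02, with 7463 of 16110 lower.

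At 45 h ETV5 ILMN_1739222 differed by -4.14 log2 units from its 0 h level, beside differences of -4.31 for SPRY4 and -3.29 for DUSP6. ETV4 was not detected at this time and has only lower bounds on its decrease, so its place among these genes could not be read. These differences rest on 1 array at each time. The 45 h log2 values of ETV5 ILMN_1739222 and SPRY4, 6.40 and 6.34, lay near the lowest detected value there, 6.24.

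**Figure D3:**
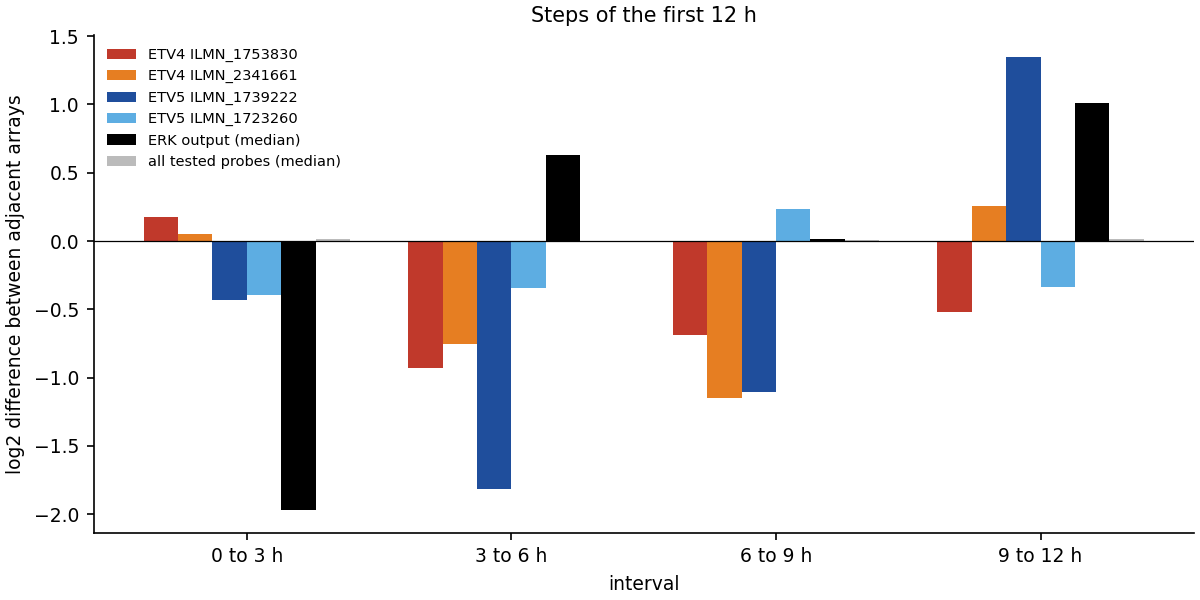
Log2 difference between adjacent arrays in the first 12 h for the 4 PEA3 probes that passed the filter (coloured bars), the median of the 18 ERK output genes (black bars) and the median of all 16110 tested probes (grey bars), with 1 array per time point and no error bars. From 0 to 3 h the list median was -1.97 and ETV5 ILMN_1739222 -0.43, from 3 to 6 h this probe was -1.81, and from 9 to 12 h it was 1.34 and the list median 1.01.

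Over the whole course, 8 of the 18 ERK output genes fell and 2 rose in the linear term (limma, Benjamini-Hochberg adjusted over all tested probes), where 21.7% of all tested probes fell, 26% rose and 47.7% did either. Among those that fell, the linear change was -2.14 ± 0.57 log2 units over 45 h for SPRY4 (limma adjusted p = 0.00429), -1.98 ± 0.38 for the phosphatase gene DUSP4 (adjusted p = 0.000249) and -1.93 ± 0.64 for DUSP6 (adjusted p = 0.0175). SPRY1, a Sprouty paralog, rose by 1.41 ± 0.31 (adjusted p = 0.000992) and SPRED3 by 0.58 ± 0.23 (adjusted p = 0.0474). The SPRY1 log2 values were 10.77 at 0 h, 8.97 at 3 h and 11.19 at 45 h, so its linear rise includes the return from the low 3 h value. SPRED3 was detected on 4 arrays only, with a mean log2 value of 5.82. The median linear change of the list was -0.62. The limma F-test of the cubic course found time dependence for 7 of the 18 and for 51.3% of all tested probes, and the count of 7 was 14 without the 0 h array and 11 without the 3 h array. With the sets of 4 arrays as a factor, 0 genes of this list, or of the 4 lists that follow, were past the threshold of the linear term. In that fit the SE of the linear term of ETV5 ILMN_1739222 was 1.82 in place of 0.42. The share of all tested probes past the threshold there is not given here, so the 0 is not a result about these lists.

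The linear changes of ETV4 and of ETV5 ILMN_1739222 lay below those of all 18 other ETS factors tested, while that of ETV5 ILMN_1723260 was -0.13. The PEA3 genes were selected on their changes over this same course, so their place here is a description. Of 25 other ETS genes, 23 were on the array and 18 passed the filter, of which 5 rose, 6 fell and 7 did not pass the limma test, with a median linear change of 0.07. Of all tested probes 26% rose and 21.7% fell, so these counts are near the background. ELF3, an epithelium-specific ETS factor, rose by 1.85 ± 0.13 log2 units over 45 h (adjusted p = 1.54e-09), ETS2 by 1.03 ± 0.15 (adjusted p = 8.21e-06) and ETV2 by 0.81 ± 0.26 (adjusted p = 0.0143). Of those that fell, ELF4 had a linear change of -0.78 ± 0.11 (adjusted p = 7.69e-06), ETS1 of -0.64 ± 0.25 (adjusted p = 0.046) and ELK4 of -0.51 ± 0.15 (adjusted p = 0.0088). ETS1, itself a substrate of ERK, was the 1 member at least 1.7-fold lower at 3 h, with log2 values of 9.70 at 0 h, 8.75 at 3 h and 7.88 at 6 h, and ELF3 was the 1 member higher by that amount, with 12.79 and 13.77 at 0 h and 3 h, against 2.43% of all tested probes lower and 1.82% higher.

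**Figure D4:**
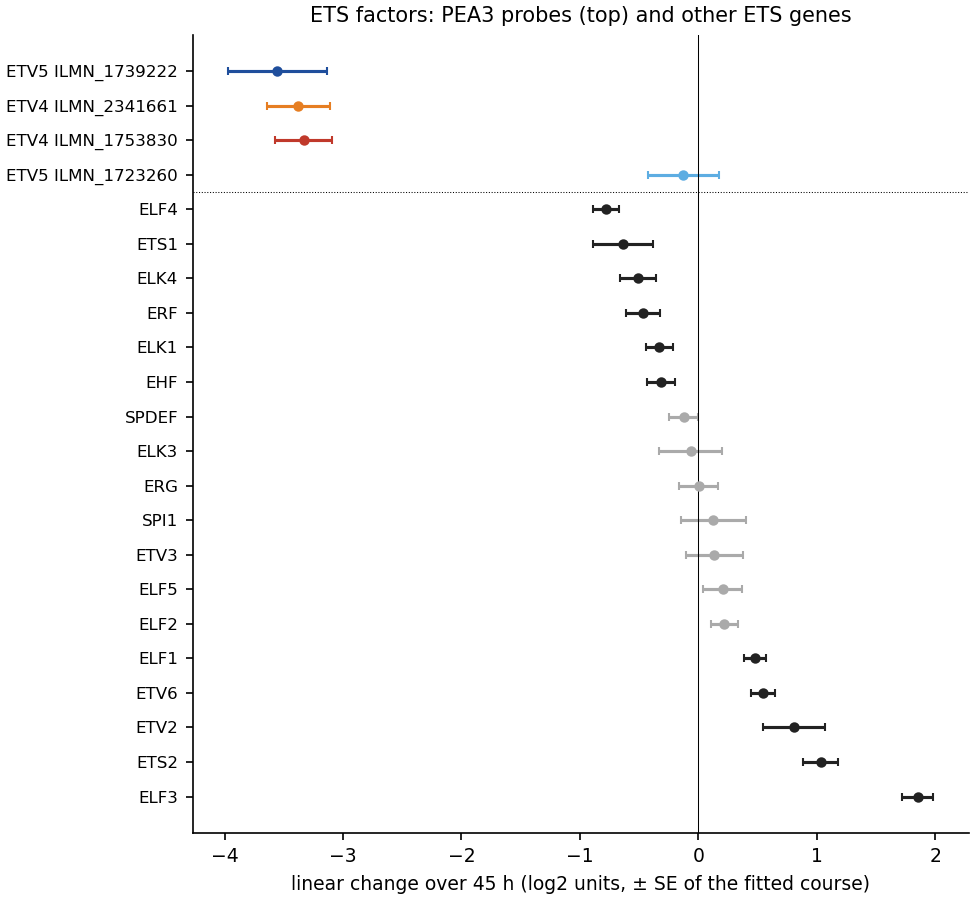
Linear change over 45 h in log2 units (points) with the SE of the fitted cubic course over 16 arrays (bars) for the 4 PEA3 probes that passed the filter, above the dotted line, and 18 other ETS genes, below it, with grey for genes that did not pass the limma test. The ETV4 probes and ETV5 ILMN_1739222 lay between -3.56 and -3.33, ETV5 ILMN_1723260 at -0.13, and the other ETS genes between -0.78 (ELF4) and 1.85 (ELF3).

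The transcripts of genes that regulate PEA3 factors had linear changes between -0.18 and 0.60 log2 units over 45 h. Of 11 such genes 10 were on the array and tested, of which 4 rose, 0 fell and 6 did not pass the limma test, near the 47.7% of all tested probes called in either direction. CIC, the repressor of PEA3 transcription, was at 9.03 at 0 h, 8.71 at 3 h and 8.55 at 45 h on the log2 scale, with a linear change of -0.18 ± 0.14 (limma adjusted p = 0.31). ATXN1, a partner of Capicua, rose by 0.60 ± 0.18 (adjusted p = 0.00817), and ATXN1L was not on the array. COP1, on the array under the older symbol RFWD2, rose by 0.20 ± 0.06 (adjusted p = 0.0108) and CUL4A, a cullin of the ligase complexes it works in, by 0.44 ± 0.10 (adjusted p = 0.00167). The adaptor genes DET1 and DDB1 had linear changes of 0.28 ± 0.14 and 0.13 ± 0.07 and did not pass the test.

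Among cofactors and kinases, CREBBP, an acetyltransferase and coactivator, rose by 0.50 ± 0.10 (limma adjusted p = 0.00031), while its paralog EP300 had a change of 0.13 ± 0.15 and did not pass. RPS6KA1 and RPS6KA5, kinases activated by ERK, had linear changes of -0.16 ± 0.11 and -0.01 ± 0.15 and did not pass. None of the 10 tested regulators differed by 1.7-fold between 0 h and 3 h or between 0 h and 6 h, where 4.09% of all tested probes were higher by that amount at 6 h and 5.65% lower. Time dependence was found for 7 of the 10, and for 4 without the 0 h array, against 51.3% of all tested probes.

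The transcripts of the cascade from HER2 to ERK were called in both directions. Of 23 genes 22 were on the array and 21 were tested, of which 4 rose, 4 fell and 13 did not pass the limma test, with a median linear change of 0.02 and a count past the threshold of 5 in place of 8 without the 0 h array. Of all tested probes 47.7% were called in either direction. ERBB3, the partner receptor of HER2, rose on its brightest probe by 0.98 ± 0.17 log2 units over 45 h (adjusted p = 9.62e-05). Dimmer ERBB3 probes, ILMN_1737993 (0.23 ± 0.15) and ILMN_2397602 (0.24 ± 0.16), also detected on all 16 arrays, did not pass. The exchange factor SOS2 and the kinase BRAF rose by 0.61 ± 0.18 and 0.43 ± 0.16. Of the genes that fell, NF1, which switches RAS off, had a linear change of -1.04 ± 0.27 (adjusted p = 0.00375) with detection on 6 arrays. HRAS had -0.93 ± 0.13 and the adaptor GRB2 -0.58 ± 0.09, each on its brightest probe. Dimmer probes of HRAS (ILMN_1699798, -0.53 ± 0.26, detected on 15 arrays) and GRB2 (ILMN_1742521, 0.07 ± 0.12, on 16) did not pass. ERBB2, the target of the inhibitor, had a linear change of 0.02 ± 0.04 on its brightest probe, ILMN_2352131, whose signal was 94.5% to 99.4% of the highest on each array, so a change there could not be read. On another ERBB2 probe, ILMN_1728761, whose signal was 1.28% to 3.17% of that maximum, the linear change was 0.44 ± 0.09 (limma adjusted p = 0.000418).

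Genes reported as targets of PEA3 factors in other cells were counted in the same way. Of 16 such genes 11 were tested, of which 2 rose, 2 fell and 7 did not pass the limma test, with a median linear change of 0.08 over 45 h, where 47.7% of all tested probes were called. MMP3, a stromelysin, and MMP9, a gelatinase detected on 10 arrays, fell, with linear changes of -1.38 ± 0.33 (adjusted p = 0.00197) and -1.05 ± 0.23 log2 units (adjusted p = 0.000944). MMP7, matrilysin, rose by 2.31 ± 0.28 (adjusted p = 1.33e-06) with detection on 9 arrays, and ICAM1, an adhesion molecule, by 0.65 ± 0.23 (adjusted p = 0.0275). MMP1, MMP13, VIM, TERT and CXCR4 did not pass the filter. At 3 h 0 of the 11 differed by 1.7-fold from 0 h, where 2.43% of all tested probes were lower and 1.82% higher by that amount.

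The probes with the course most like a PEA3 probe were ranked by Pearson r over the 16 arrays. For ETV5 ILMN_1739222 they were those of OGFOD1, a hydroxylase of a ribosomal protein, PRMT5, an arginine methyltransferase, and PELP1, a nuclear receptor coregulator, each at r = 0.97, followed by SLC43A3, a nucleobase transporter, and LAD1, a basement membrane protein, each at 0.96. In size they differed from ETV5, as OGFOD1 went from 13.32 at 0 h to 12.62 at 45 h on the log2 scale and LAD1 from 14.11 to 11.98. For ETV4 ILMN_1753830 they were ZAK, a stress kinase, COL5A2, a collagen chain, BAIAP2L2, an actin-linked membrane protein, PPIL1, a splicing isomerase, and ARS2, a partner of the cap-binding complex, each at r = 0.97. By Spearman rho these 5 ranked only 12, 57, 25, 34 and 48, so this choice of genes depends on the measure. An r above 0.9 was common, as 408 of the other 16109 tested probes had it with this ETV4 probe, 272 with ETV4 ILMN_2341661 and 101 with ETV5 ILMN_1739222, against 0 with ETV5 ILMN_1723260. None of the ERK output genes reached 0.9 with either probe: their r with ETV5 ILMN_1739222 had a median of 0.42 and a highest value of 0.82, and with ETV4 ILMN_1753830 a median of 0.26 and a highest value of 0.71. Some cell type markers also changed over the course. ACTA2, the smooth muscle actin also used by myoepithelium, fell in the limma test (adjusted p = 2.21e-07), with log2 values of 10.35 and 9.14 on the first and last arrays. The keratins KRT8 and KRT18 fell too, with linear changes of -0.68 ± 0.10 (limma adjusted p = 2.14e-05) and -0.74 ± 0.10 (adjusted p = 7.73e-06), while CD14 rose by 0.34 ± 0.14 (adjusted p = 0.0499), and KRT19, EPCAM, CDH1, COL1A1 and PECAM1 did not pass. Dimmer probes of KRT18 (-0.07 ± 0.16) and CD14 (0.27 ± 0.15), also detected on all 16 arrays, did not pass. The brightest probes had an r with ETV4 ILMN_1753830 of 0.88 for ACTA2, 0.83 for KRT8, 0.82 for KRT18 and -0.33 for CD14. The part of these markers in these results was not tested.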

How the data were processed

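Total RNA of 16 parallel cultures, 1 per time point, was amplified and hybridised to Illumina bead arrays. The deposited table holds, per probe and array, a linear signal intensity that the authors had neither background-corrected nor normalized. It also holds a detection p-value, which the authors' software set against negative control probes. Quantile normalization is what the study's methods describe, which also name an Illumina human Ref8v2 array for time courses. The labels of these samples name no version, and the scanning software is not given in the sources used here. The number of arrays limits the precision.

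Signals were corrected with normexp on a background inferred from the detection p-values, with an offset of 16, quantile normalized and log2 transformed (neqc, limma 3.58.1, R 4.3.3). Fold changes of dim probes shrink with the offset. The 16110 probes detected (p under 0.05) on 3 or more arrays were tested with lmFit and eBayes (intensity trend) on a cubic in hours. The linear term is that cubic's first-order coefficient expressed over 45 h. Because no time point had a replicate, errors come from residuals around the course and contain any change the cubic cannot follow. Tests were two-sided, with Benjamini-Hochberg adjustment over all tested probes at 0.05. Comparisons of single arrays have no test and count changes of 1.7-fold. Lists used the brightest probe of each gene. The fit was tested on simulated data. Bounds for undetected probes use the lowest log2 value of detected probes on that array.

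Members and lists were chosen with earlier results of these data known. Named were all PEA3 probes and regulators, ERBB2, DUSP6, SPRY4, the 3 largest rises and 3 largest falls past the threshold in each other list, and the 5 probes most like the brightest ETV4 and ETV5 probes. Alternatives changed background correction, offset, normalization, filter, model of time, thresholds, time points and the arrays used. Array symbols matched RefSeq symbols of GRCh38.p14 for 16950 of 18631. Python 3.11.15 with matplotlib 3.10.9 drew the figures.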

Additional observations from a re-analysis of the deposited data

How the results depend on the processing

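No paired analysis was possible because there was 1 array for each time point. The linear changes and the 0 h to 45 h differences of both ETV4 probes and of ETV5 ILMN_1739222 were negative under every alternative run. For ETV4 ILMN_1753830 the linear change was -1.59 with no background correction, -2.66 with an offset of 50, -3.96 with a step between 21 and 24 h and -2.84 with sets of 4 arrays as a factor, and for ETV4 ILMN_2341661 it was -1.44, -2.47 and -4.31 with no correction, the offset and the sets. For ETV5 ILMN_1739222 it was -2.10 with no correction and -6.01 with the sets, and for ETV5 ILMN_1723260 it was 0.73 with the step and 0.63 with the sets. The 0 h to 45 h differences were -1.69, -1.51 and -2.69 with no correction for the ETV4 probes (in that order) and ETV5 ILMN_1739222, and -2.74 and -2.51 with the offset for ETV4. With the mean of 36 to 45 h, ETV5 ILMN_1723260 was at -0.47. In place of 3 h, the mean of 3, 6 and 9 h against 0 h gave -0.67 and -0.83 for ETV4 and -2.01 for ETV5 ILMN_1739222, and the 6 h array, added after the data were seen, gave -0.75, -0.70 and -2.25. In place of the 9 h to 12 h difference, the mean of 12 to 21 h against the mean of 3 to 9 h gave -1.31 and -1.09 for ETV4 and, with the direction turned, -0.28 for ETV5 ILMN_1739222. Leaving out 1 array at a time, the linear changes ranged from -3.48 to -3.05 and from -3.61 to -3.11 for ETV4, and from -3.92 to -3.12 and from -0.44 to 0.07 for ETV5 ILMN_1739222 and ILMN_1723260. The counts of list genes past the linear threshold with the step and the sets were 4 and 0 of the other ETS factors, 1 and 0 of ERK output, 2 and 0 of the cascade, 1 and 0 of the regulators and 2 and 0 of the reported targets. The share of all tested probes past it with the step or the sets is not given here, so these counts have no background beside them. The target count was 1 with detection on all 16 arrays. At 3 h the 2 other ETS factors past 1.7-fold became 1 with no correction and 0 at 2-fold, and the 1 cascade gene became 0 with no correction, the offset, median scaling, cyclic loess or a 2-fold threshold. The targets had 1 with the mean of 3, 6 and 9 h and 2 at 6 h. Leave-one-out counts of time dependence ranged from 5 to 14 for ERK output (14 without 0 h, 11 without 3 h) and from 4 to 6 for the regulators (4 without 0 h), and of the linear trend from 5 to 10 for the cascade (5 without 0 h). Of the 10 probes most like each PEA3 probe, Spearman rho shared 0 and 1 for ETV4 and 6 and 6 for ETV5. The cause of these changes was not tested. Signal over background limits the ETV4 values after 33 h, earlier undetected values of ETV4 ILMN_2341661 and all ETV1 values. It also limits ETV5 ILMN_1739222 from 36 h on and ETV5 ILMN_1723260 throughout.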
